A study of Homo sapiens with 72 samples.

Results

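The Kruppel-like factors are DNA-binding proteins that share 3 zinc fingers at the carboxyl end and bind GC-rich and CACCC-type sequences. Their amino-terminal parts differ and recruit different partners, so that some members mainly activate genes and others mainly repress them. Several KLF genes are classed as early response genes, whose short-lived mRNAs change quickly when a cell is stimulated or stressed. Of the family, 10 genes were examined, taken by name and whatever their values: KLF3, which recruits the corepressor CtBP; KLF2, KLF4, KLF5, KLF6 and KLF7, which are mostly activators; and KLF9, KLF10, KLF11 and KLF13, which recruit the corepressor SIN3A. These are 10 of 60371 genes in the files.

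The data were poly(A) RNA-seq of U2OS, a human osteosarcoma cell line, in 72 wells harvested after 12 h. Of these, 18 wells received the vehicle DMSO, and 3 wells each received 100, 1000 or 10000 nM of 1 of 6 compounds: triptolide (a transcription inhibitor), homoharringtonine (HHT, a translation inhibitor), nilotinib (BCR-ABL inhibitor), MK-2206 (AKT inhibitor), pyrazolanthrone (JNK inhibitor) and miglitol (alpha-glucosidase inhibitor). All wells held the same untransfected line, and the labels name no separate cultures or days, so p-values measure only the spread between wells. Libraries held a median of 38.4 mil counts, and 3 held under 10 mil: replicate 2 of triptolide 100 nM with 0.0708 mil, 1 DMSO well with 0.46 mil and 1 well of triptolide 1000 nM with 9.63 mil. The first of these held 0 to 7 counts of each member, and leaving out the 3 changed no call of a member. In the 17 deeper DMSO wells, the osteoblast-lineage genes RUNX2, COL1A1, SPARC, ALPL and SPP1 were at 1 TPM (transcripts scaled to gene length and library size) or more in all 17, whereas SP7, COL1A2 and IBSP reached it in 0 wells, and the epithelial marker EPCAM had a median of 2.50 TPM and CDH1 of 0.40 TPM. The share of counts from 13 mitochondrial mRNAs had a median of 0.235% with DMSO and 0.544%, 0.949% and 1.10% with rising triptolide. Values with libraries scaled to these mRNAs (mitochondrial scaling) are given below, and the cause of the rise was not tested.

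Sequences of 4 members are shown first because their responses to HHT differed: KLF2 and KLF5 rose, KLF9 did not pass the test and KLF13 fell. Each is the 250 bases before the transcription start in RefSeq (GRCh38.p14), 5′ to 3′ on the strand of the gene: chr19:16324576-16324825 (plus strand) for KLF2, chr13:73058755-73059004 (plus) for KLF5, chr9:70414658-70414907 (minus) for KLF9 and chr15:31326585-31326834 (plus) for KLF13. Capitals mark a MEF2 site in KLF2, and CCAAT or TGACG on either strand in the others.
KLF2: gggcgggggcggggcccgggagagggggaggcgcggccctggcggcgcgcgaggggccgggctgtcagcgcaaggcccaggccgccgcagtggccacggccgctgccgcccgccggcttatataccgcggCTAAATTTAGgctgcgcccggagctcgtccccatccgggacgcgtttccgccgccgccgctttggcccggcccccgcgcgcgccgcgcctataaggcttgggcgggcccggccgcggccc
KLF5: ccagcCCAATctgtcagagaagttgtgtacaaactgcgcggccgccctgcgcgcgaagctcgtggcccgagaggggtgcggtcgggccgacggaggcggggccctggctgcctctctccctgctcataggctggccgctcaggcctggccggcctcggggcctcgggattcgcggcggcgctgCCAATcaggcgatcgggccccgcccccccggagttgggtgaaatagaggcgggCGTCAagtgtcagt
KLF9: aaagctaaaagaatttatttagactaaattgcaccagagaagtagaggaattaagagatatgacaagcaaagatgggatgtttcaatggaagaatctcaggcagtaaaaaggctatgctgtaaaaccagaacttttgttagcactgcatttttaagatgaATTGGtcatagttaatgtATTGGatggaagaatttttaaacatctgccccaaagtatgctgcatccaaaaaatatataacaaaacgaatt
KLF13: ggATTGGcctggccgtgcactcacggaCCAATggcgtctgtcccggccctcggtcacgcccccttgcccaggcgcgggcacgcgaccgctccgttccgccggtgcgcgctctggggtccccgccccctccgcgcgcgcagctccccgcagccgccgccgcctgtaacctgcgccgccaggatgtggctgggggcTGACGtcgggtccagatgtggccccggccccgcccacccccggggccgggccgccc
Of the 10 members, the promoters of 8 were searched. Windows ran from 250 bases before to 50 after the start, and both strands were searched. The MEF2 site was found in 3.10% of 27305 promoters and, among these 8, in KLF2. CCAAT was found in 35.7% of promoters and occurred 2 times each in KLF5, KLF6, KLF9 and KLF13. TGACG was found in 25.0% of promoters, and in KLF4, KLF5 and KLF13. GGGCGG, a GC box, was found in 44.6% of promoters and in 6 of these members, 6 times in KLF2, but in neither KLF7 nor KLF9.

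AU-rich elements in the 3′ untranslated region (UTR) mark many unstable mRNAs, and the letters ATTTA were found in all 10 members, against 68.7% of 19183 genes. Their density ran from 0.89 per kb in KLF13 to 3.03 per kb in KLF5, with a median of 1.55 per kb over all genes. The UTRs ran from 899 bases in KLF4 to 7076 in KLF7, beside a median of 1101 over all genes. Shares of genes with a motif were not adjusted for this length. The longer form TATTTAT, present in 32.1% of genes, occurred 1 time each in 6 members, printed with 8 bases on each side and the motif in capitals.
KLF2: gtgactggTATTTATtggaccca
KLF3: gtatttgtTATTTATgaacccct
KLF5: tttatcttTATTTATtttgtggt
KLF6: gtttctctTATTTATgccttgag
KLF7: ttctctggTATTTATaatatatc
KLF11: tagaaaaaTATTTATattgttgg
These sites lie at chr19:16327104-16327126 (plus) for KLF2, chr4:38701335-38701357 (plus) for KLF3, chr13:73077180-73077202 (plus) for KLF5, chr10:3778344-3778366 (minus) for KLF6, chr2:207075432-207075454 (minus) for KLF7 and chr2:10052883-10052905 (plus) for KLF11, all in GRCh38. KLF4, KLF9, KLF10 and KLF13 held none in this annotation.

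With DMSO, KLF10 was the most abundant member per length. Over the 17 deeper wells it had 36.0, 42.8 and 49.5 TPM (lowest, median, highest). KLF13 followed with a median of 29.6 TPM and KLF5 with 17.1 TPM. KLF7, KLF11, KLF3 and KLF6 had medians of 12.3, 11.1, 10.5 and 9.73 TPM, KLF2 of 4.90 TPM and KLF9 of 3.98 TPM. KLF4 was near 0, with a median of 0.06 TPM and at most 0.17 TPM. The wells of neighbours in this order overlapped, except those of KLF9 and KLF4. The 10 members together had a median of 141.3 TPM, of which KLF10 gave 29.4%.

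HHT raised KLF10 more than any other member, and changed the members in both directions. In the following, levels in single wells are CPM, that is counts over the library size, scaled by the trimmed mean of M-values (TMM), fold changes are log2 values of treated over DMSO wells with their standard error (SE), and a gene was called when edgeR's adjusted p was under 0.05 and its log2 fold change was above 1 or below -1. Such changes are relative to the bulk of the transcriptome. At 100 nM, 3 members were called higher and 2 lower of 9 tested. At 1000 nM these counts were 5 and 2 of 9, and at 10000 nM 4 and 2 of 10, where the 4 include KLF4, which passed the count filter through that group. Among all genes, 15.6%, 21.5% and 23.6% were called higher and 19.3%, 20.9% and 23.4% lower at the 3 doses. The median change over the members tested was 0.54, 1.08 and 0.61, beside -0.03, -0.01 and -0.05 over all genes. The value of 0.61 includes KLF4, at 2.53, which was not tested at the lower doses.

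**Figure D1:**
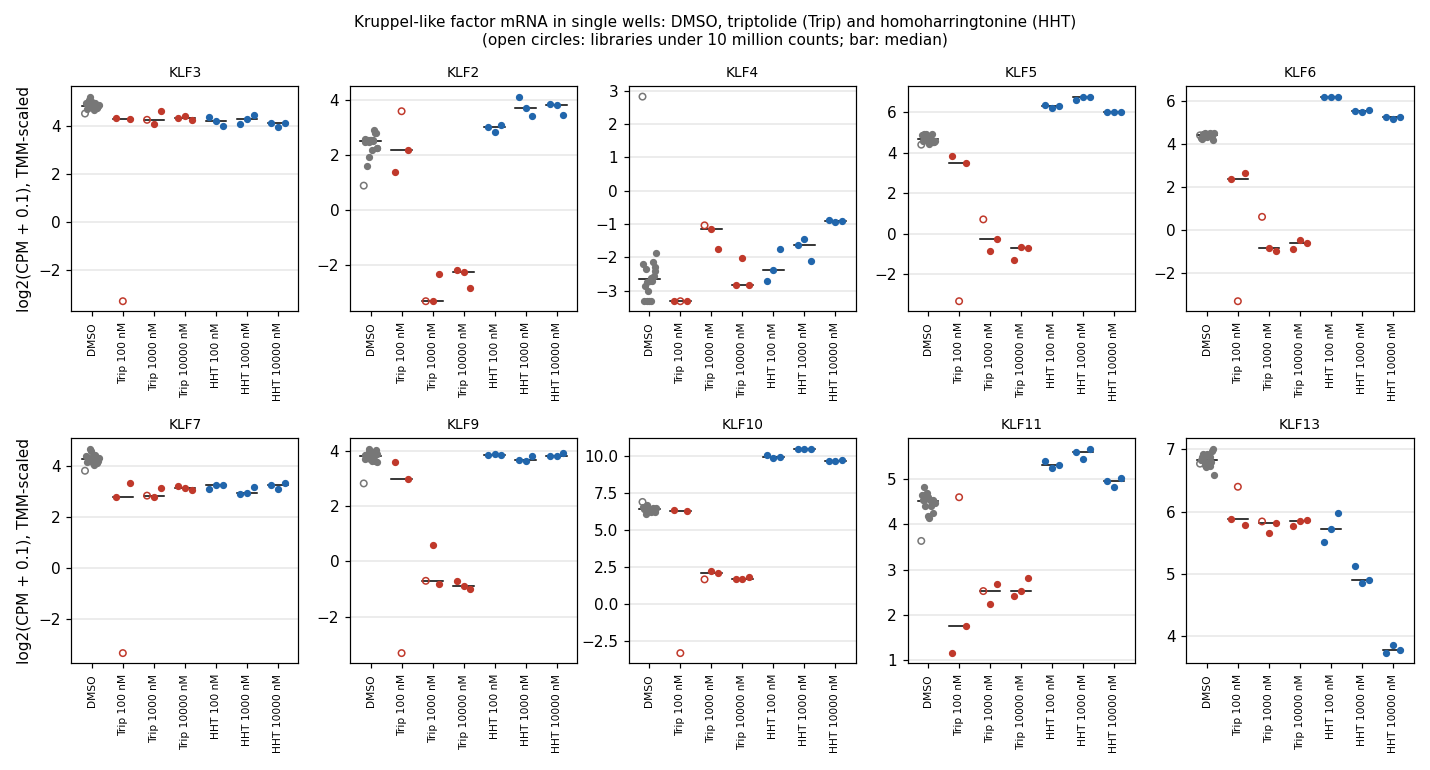
Level of each member in single wells as log2(CPM + 0.1), for DMSO and 3 doses each of triptolide (Trip) and HHT. Points are wells, bars are medians and open circles are libraries under 10 mil counts. KLF10 lay between 834 and 1490 CPM with HHT and between 3.08 and 4.65 CPM with the 2 higher triptolide doses.

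KLF10, a repressor induced early by TGF-beta, had 69.0, 86.2 and 104 CPM (lowest, median, highest) in the 17 deeper DMSO wells. With HHT it had 1080, 971 and 1010 CPM at 100 nM, 1440, 1470 and 1490 CPM at 1000 nM, and 843, 834 and 852 CPM at 10000 nM. All 9 HHT wells lay above all DMSO wells, and the middle dose was the highest. The log2 fold changes were 3.57 (SE 0.078), 4.08 (SE 0.077) and 3.25 (SE 0.085), with edgeR adjusted p of 1.1e-20, 7.1e-22 and 1.4e-19. Between 100 and 1000 nM of HHT 0 of 9 members were called, beside 10.6% of all genes. Between 1000 and 10000 nM KLF13 was called lower, as were 0.571% of all genes, with 0.274% higher, and KLF10 fell by 0.77 on the log2 scale (SE 0.080, edgeR adjusted p = 0.013), under the fold threshold. KLF10 then made up 77.0% to 84.0% of the summed TPM of the 10 members in the HHT wells. KLF11, also induced by TGF-beta, had a DMSO median of 23.1 CPM and 48.2, 43.2 and 50.9 CPM at 1000 nM. It was called at that dose alone (log2 fold change 1.08, SE 0.115, edgeR adjusted p = 1.1e-08), with 0.84 and 0.42 at 100 and 10000 nM. With library sizes only, KLF11 was at 0.94 and KLF6 at 0.99 at 1000 nM, which ended both calls.

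KLF5, an activator tied to proliferation of epithelial and muscle cells, rose at each HHT dose. Its DMSO wells had 21.3, 25.3 and 30.8 CPM (lowest, median, highest). It had 82.4, 73.1 and 78.2 CPM at 100 nM, 95.8, 108 and 109 CPM at 1000 nM, and 64.9, 65.2 and 64.1 CPM at 10000 nM. No HHT well overlapped DMSO. Its changes were 1.61, 2.01 and 1.30 (SE 0.085 to 0.087, edgeR adjusted p = 1.9e-12 or less). KLF6, an activator of genes of growth control and matrix, rose most at the lowest dose. It had a DMSO median of 21.6 CPM, and 73.1, 72.3 and 73.4 CPM at 100 nM, against 38.6, 35.2 and 38.5 CPM at 10000 nM. Its changes on the log2 scale were 1.81, 1.13 and 0.81, the last under the fold threshold, and the trend over the 3 doses was -0.51 per 10-fold dose (SE 0.064, edgeR adjusted p = 0.00016). KLF2, known for quiescence in endothelium and T cells, had a DMSO median of 5.70 CPM and 17.4, 13 and 10.7 CPM at 1000 nM. Its log2 fold changes were 0.54, 1.34 and 1.24, called at the 2 higher doses, but under mitochondrial scaling it was at 0.95 and not called at 10000 nM. With HHT, 4 members, KLF4 among them, and 44.0% of all genes had a trend. KLF4 passed the count filter through the 10000 nM wells, where it was high, so its trend supports nothing. The trend of KLF2, 0.34 per 10-fold dose (edgeR adjusted p = 0.045), had adjusted p of 0.054 to 0.15 in 7 of the 9 fits that left out 1 HHT well.

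KLF13 moved the other way. This SIN3A-binding factor had 96.6, 114 and 129 CPM in the DMSO wells (lowest, median, highest). It had 45.8, 52.8 and 62.9 CPM at 100 nM, 35.0, 28.9 and 29.7 CPM at 1000 nM, and 13.2, 14.5 and 13.6 CPM at 10000 nM. The 3 doses did not overlap each other or DMSO. Its log2 fold changes were -1.07, -1.87 and -3.08 (SE 0.096 to 0.104), and its trend was -1.02 per 10-fold dose (SE 0.081, edgeR adjusted p = 1.1e-05). Without replicate 1 the change at 100 nM was -0.96, under the fold threshold. The dependence of counts on GC content stood lower in the HHT 10000 nM libraries than in DMSO (slopes of -0.257 and 0.012), and with that slope as a covariate KLF13 was at -0.98, -1.78 and -2.90, still called at 1000 and 10000 nM.

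KLF7, an activator known from neurons, fell by about the same amount at each HHT dose. It had a DMSO median of 19.4 CPM and 8.52, 9.49 and 9.45 CPM at 100 nM. Log2 fold changes were -1.08, -1.29 and -1.08 (SE 0.117 to 0.121, edgeR adjusted p = 2e-08 or less). KLF3 was lower at each dose, by log2 fold changes of -0.67, -0.60 and -0.84 that stayed under the fold threshold, although the GC covariate took the last to -1.07. KLF9, a glucocorticoid-responsive repressor, had a DMSO median of 14.1 CPM and 12.4 to 15.3 CPM in the 9 HHT wells. Its log2 fold changes of 0.07, -0.11 and 0.03 (SE 0.101 to 0.116) had edgeR adjusted p of 0.41 or more. KLF4, one of the reprogramming factors, passed the count filter at 10000 nM alone of the HHT doses, where it was high, so its call there supports nothing. It had 0.443, 0.42 and 0.43 CPM on 22, 16 and 24 counts. The 17 deeper DMSO wells had at most 0.172 CPM, but the shallow DMSO well had 7.01 CPM on 4 counts. The fitted log2 fold change was 2.53 (SE 0.668).

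Triptolide lowered most members, and no member was called higher at any of its 3 doses. At 100 nM, 4 of 9 tested were called lower, and at 1000 and 10000 nM 8 of 10 and 8 of 9. Among all genes 20.9%, 30.4% and 30.2% were called lower and 11.4%, 13.9% and 16.2% higher. The median over the members tested was -0.95, -3.19 and -4.78, beside -0.16, -0.21 and -0.17 over all genes. KLF4, at 1.90 on few counts, entered at 1000 nM alone, so these medians were not over the same members. The fall steepened between 100 and 1000 nM for 5 members, and no further step was called. Between 100 and 1000 nM KLF2, KLF5, KLF6, KLF9 and KLF10 were called lower (16.8% of all genes, with 6.46% higher). Between 1000 and 10000 nM 0 of 8 tested were called (0.0191% of all genes), and KLF2 and KLF4 were not tested. In that step 0 members and 881 of 15666 genes had an unadjusted edgeR p under 0.05. KLF5 was at -1.05 (SE 0.571) and KLF9 at -0.83 (SE 0.605) there, so a further fall was not told apart from none. These dose steps were added after the data were seen. The same 5 members had a falling trend over the 9 triptolide wells, at -1.72 to -2.94 per 10-fold dose, where 24.7% of all genes had a trend.

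KLF2 fell furthest at 1000 nM, to few or no reads. Its counts were 70, 1 and 40 at 100 nM, 0, 0 and 4 at 1000 nM, and 3, 3 and 1 at 10000 nM. At the 2 higher doses its rate was 0.88% (95% exact interval 0.24 to 2.3) and 1.1% (0.44 to 2.3) of the DMSO rate, intervals that cover counting error only. KLF10 had 83.0 and 77.8 CPM in the 2 deeper wells of 100 nM, within the DMSO range. It then had 3.09, 4.65 and 4.30 CPM at 1000 nM and 3.08, 3.19 and 3.44 CPM at 10000 nM, below all DMSO wells. The log2 fold changes were -0.21 (edgeR adjusted p = 0.31), -4.43 (SE 0.167) and -4.79 (SE 0.153). Under mitochondrial scaling KLF10 was at -1.95 and KLF2 at -2.34 at 100 nM, both called, where the median of all genes moved by -1.65.

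KLF5, KLF6 and KLF9 shared this course. At 10000 nM KLF5 had 0.316, 0.545 and 0.514 CPM, KLF6 had 0.435, 0.617 and 0.554 CPM, and KLF9 had 0.514, 0.436 and 0.396 CPM. Each of these wells lay below every DMSO well. The log2 fold changes there were -5.84 (SE 0.190), -5.32 (SE 0.138) and -5.00 (SE 0.184). At 100 nM KLF6 was already at -1.93 (SE 0.143) and KLF5 at -1.05 (SE 0.162), while KLF9 was at -0.49 (SE 0.174). Mitochondrial scaling put KLF9 at -2.18 there, and it was called, beside the shift of -1.65 in the median of all genes. Without replicate 3, KLF5 was at -0.91, under the fold threshold.

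KLF11 had another course, lowest at the lowest dose. It had 2.13 and 3.27 CPM in the 2 deeper wells of 100 nM, then 5.66, 4.63 and 6.27 CPM at 1000 nM and 5.25, 5.68 and 6.91 CPM at 10000 nM. Against DMSO it fell at the 3 doses, by log2 changes of -3.01 (SE 0.270), -2.01 (SE 0.164) and -1.96 (SE 0.153). The difference between 100 and 1000 nM was 0.78 (SE 0.541, edgeR adjusted p = 0.29), so the doses were not told apart.

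KLF7, KLF13 and KLF3 fell least at the 2 higher triptolide doses. At 100 nM KLF10, KLF9 and KLF2, at -0.211, -0.494 and -0.655 on the log2 scale, fell less than KLF13 and KLF7. KLF7 was at -1.25, -1.38 and -1.21 on the log2 scale and was called at each dose, but without replicate 1 of 100 nM it was at -0.96. KLF13 was at -0.95, -1.07 and -1.05, called at the 2 higher doses. Both calls ended with the size factors of DESeq2, at -0.88 each. At 100 nM KLF13 passed the fold threshold under 6 alternatives: DESeq2 at -1.01, no count filter at -1.03, the GC covariate at -1.08, the replicate block at -1.25, library sizes only at -1.27 and mitochondrial scaling at -2.53. KLF3 was at -0.58, -0.54 and -0.59 and was not called. KLF4 was tested at 1000 nM alone, with 3, 3 and 8 counts (log2 fold change 1.90, SE 0.985, edgeR adjusted p = 0.091). When libraries were scaled to mitochondrial mRNAs, the median of all genes moved by -1.65, -2.47 and -2.75 at the 3 triptolide doses, and KLF3 was at -2.27, -3.01 and -3.35.

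**Figure D2:**
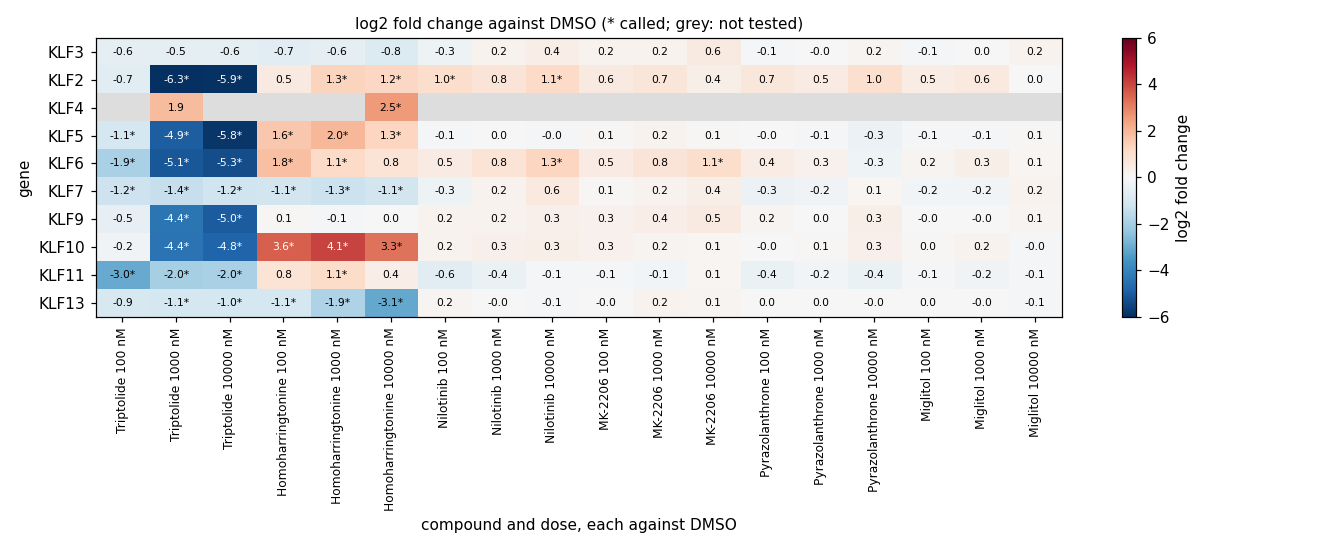
The log2 fold change of each member for the 18 compound and dose comparisons with DMSO, by edgeR, with asterisks on called values and grey where the gene was not tested. Calls were made for 2 members with nilotinib and 1 with MK-2206, and for none with pyrazolanthrone or miglitol.

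Compared directly at the same dose, without the DMSO wells, triptolide stood below HHT for KLF2, KLF5, KLF6, KLF10 and KLF11 at each dose. At 100, 1000 and 10000 nM 5 of 9, 6 of 10 and 7 of 10 members were called lower with triptolide, against 27.4%, 35.9% and 37.9% of all genes (the 7 include KLF4, which passed the count filter through the HHT wells), and 0, 0 and 1 were called higher, against 20.5%, 22.6% and 30.2%. KLF10 differed by -3.69 (SE 0.268), -8.51 (SE 0.229) and -7.95 (SE 0.086) on the log2 scale, the largest difference of a member at the 2 higher doses, whereas at 100 nM KLF11 was at -3.80 (SE 0.323). KLF9 was called lower at the 2 higher doses, at -4.19 (SE 0.439) and -4.95 (SE 0.153). KLF13 was higher with triptolide at 10000 nM, by 2.12 (SE 0.081, edgeR adjusted p = 9e-10), but stood at -0.46 under mitochondrial scaling. At 1000 nM it was at 0.80, and at 1.05 without replicate 1 of HHT, past the fold threshold. KLF7 differed by -0.10, -0.10 and -0.04 (SE 0.107 to 0.269), none called. Under mitochondrial scaling it differed by -1.77, -2.47 and -2.63, each called, where the median of all genes moved by -1.65, -2.39 and -2.58. The KLF2 difference at 100 nM, -1.14 (edgeR adjusted p = 0.0040), was -0.71 (adjusted p = 0.083) without replicate 1 of triptolide. DESeq2 put it at -1.095 with an adjusted p of 0.22, so this call held in edgeR but not in DESeq2.

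**Figure D3:**
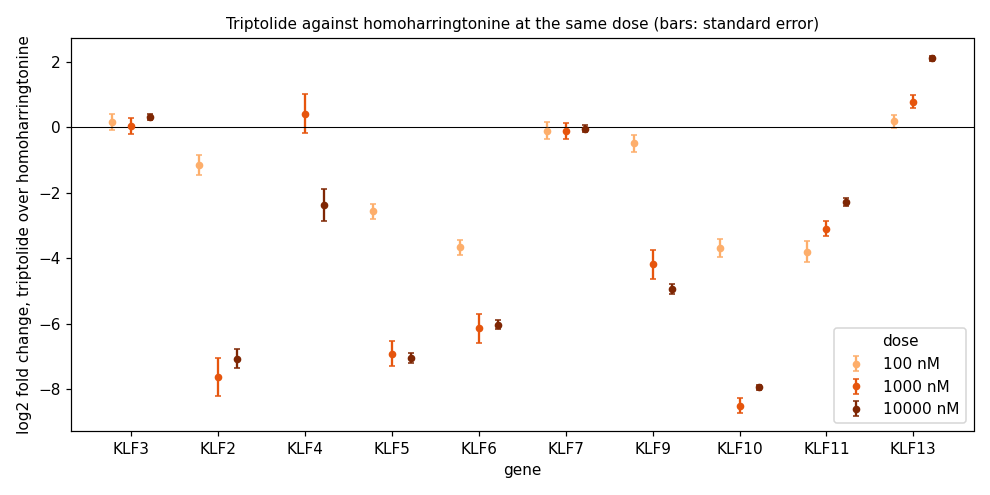
The log2 fold change of triptolide over HHT at 3 matched doses by edgeR, with bars for the SE. KLF2, KLF5, KLF6, KLF10 and KLF11 lie below 0 at each dose, and KLF3 and KLF7 lie near 0, although under mitochondrial scaling both were called lower at each dose.

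With the other 4 compounds, KLF6 and KLF2 were the members called against DMSO. Under the fold threshold at 10000 nM, KLF7 was at 0.57 and KLF3 at 0.40 with nilotinib (edgeR adjusted p = 0.00031 and 0.0033), and KLF3 at 0.56 and KLF9 at 0.55 with MK-2206 (0.00075 and 0.0017). With nilotinib, KLF6 had 30.8, 27.2 and 31.5 CPM at 100 nM, 44.1, 35.6 and 31.5 CPM at 1000 nM, and 55.5, 53.4 and 43.7 CPM at 10000 nM, against at most 22.5 CPM with DMSO. All 9 wells lay above DMSO, as did all MK-2206 wells (26.9 CPM or more). So did the pyrazolanthrone wells at 100 and 1000 nM (23.7 CPM or more), and miglitol at 1000 nM reached 30.0 CPM. The KLF6 log2 fold changes with nilotinib were 0.51, 0.82 and 1.28 (SE 0.078 to 0.089), the last called. Of all genes 2.41% were called higher and 0.709% lower at 10000 nM, and 1.13% in either direction at 1000 nM, where 0 members were. KLF2 had 11.3, 13 and 11.4 CPM at 10000 nM of nilotinib, above the highest DMSO well at 7.41 CPM (log2 fold change 1.14, SE 0.167, edgeR adjusted p = 2.8e-05). At 100 nM its change was 1.04, when 0.702% of all genes were called higher and 0.778% lower, and 0.90 without replicate 2, which ended the call. All KLF2 wells also lay above DMSO at 100 nM of nilotinib, 1000 nM of MK-2206 and 10000 nM of pyrazolanthrone (8.34 CPM or more). The other groups overlapped DMSO, though miglitol at 1000 nM reached 10.9 CPM. Under the fold threshold, KLF2 was at 0.785 and 0.737 with nilotinib and MK-2206 at 1000 nM (edgeR adjusted p = 0.021 and 0.032). With MK-2206 at 10000 nM KLF6 had 41.7, 46.9 and 42.2 CPM (log2 fold change 1.05, SE 0.077, edgeR adjusted p = 9e-09), and 0.56% of all genes were called higher and 0.151% lower. At 100 and 1000 nM 0 members were called, beside 0.0054% and 0.286% of all genes. Under mitochondrial scaling these values at 10000 nM were 0.58 and 0.42 for KLF6 and KLF2 with nilotinib and 0.79 for KLF6 with MK-2206, none of them called.

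**Figure D4:**
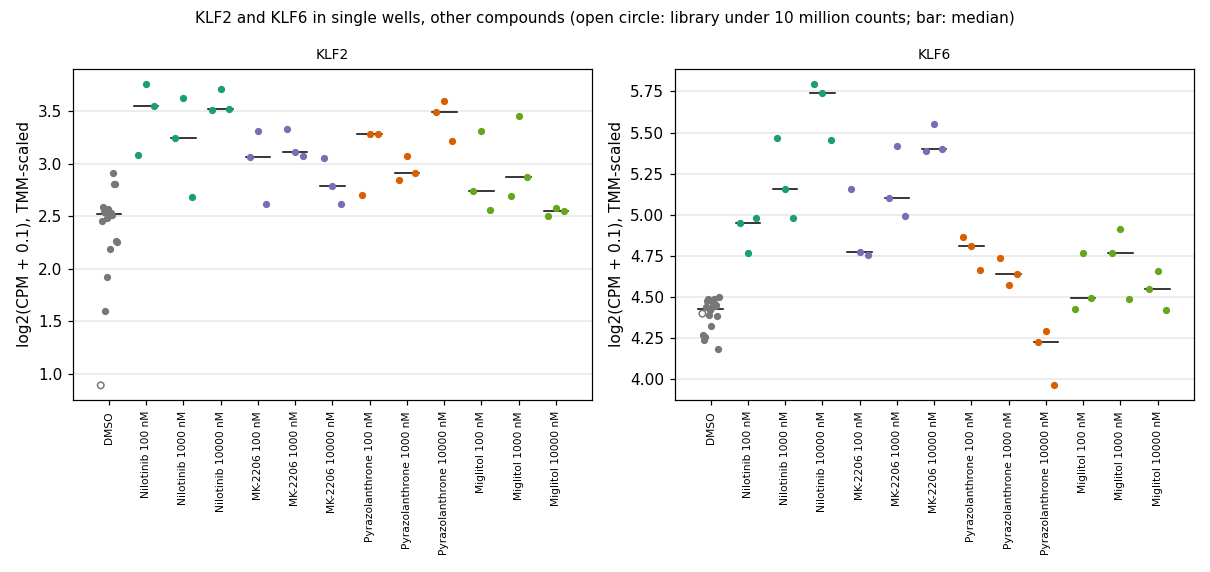
KLF2 and KLF6 in single wells as log2(CPM + 0.1), for DMSO and the 4 other compounds at 3 doses. Points are wells, bars are medians and the open circle is a library under 10 mil counts. KLF6 lies above DMSO in all 9 nilotinib wells, and also in all MK-2206 wells and the pyrazolanthrone wells at 100 and 1000 nM.

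Pyrazolanthrone at 10000 nM had KLF2 at 0.96 (SE 0.171), just under the fold threshold, and 0 members called, beside 1.16% of all genes. At 100 and 1000 nM 0 members were called as well, beside 0.923% and 0.0% of all genes. KLF6 had a falling trend of -0.35 per 10-fold dose of pyrazolanthrone (edgeR adjusted p = 0.016). Median GC slopes differed between 100 and 10000 nM, at 0.094 and -0.138 with pyrazolanthrone and 0.074 and -0.188 with miglitol. For these 4 compounds trends were added after the data were seen, and had no GC covariate or other alternative fit. Of all genes 18.6% had one with pyrazolanthrone, 3.09% with nilotinib (KLF3 and KLF6 rose), 15.9% with miglitol and 0.028% with MK-2206 (0 members each). With miglitol, 0 of 9 members and 0.0% of all genes were called by edgeR at any dose. At 100, 1000 and 10000 nM of miglitol 1, 2 and 1 members had an unadjusted edgeR p under 0.05. Among all genes 944 of 18496, 1563 of 18477 and 4195 of 18519 did so. KLF2 there was at 0.46, 0.59 and 0.04 on the log2 scale, with edgeR adjusted p of 0.31 or more.

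Among the other 17 genes of the KLF and SP family, 11 were tested against DMSO. With HHT at 10000 nM, 4 were called higher and 2 lower, with a median of 0.42. In that comparison 23.6% of all genes were called higher and 23.4% lower, with a median of -0.05, and with triptolide 16.2% and 30.2%, with a median of -0.17, for this list and both lists that follow. KLF15, a metabolic regulator, was at 4.26 (SE 0.255) and SP6 at 2.38 (SE 0.10), while KLF14 was at -3.89 (SE 0.393) and KLF12 at -1.33 (SE 0.225). KLF15 and KLF14 were near the floor in the deeper DMSO wells, with medians of 0.39 and 0.45 TPM. With triptolide at 10000 nM 0 were called higher and 8 lower, with a median of -1.90, led by SP8 at -4.41 and KLF15 at -3.28. Of 23 partners and regulators, 6 were called higher and 4 lower with HHT at 10000 nM, with a median of 0.24. SMURF1, a ubiquitin ligase of the TGF-beta pathway, was at 1.36 (SE 0.069), and SMAD3, a transducer of that pathway, at -2.17 (SE 0.086). With triptolide at that dose 1 was called higher and 10 lower, with a median of -0.82. SIN3A, the corepressor bound by KLF9, KLF10, KLF11 and KLF13, was at -3.74 (SE 0.10) and HDAC1 at 1.37 (SE 0.066).

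Of 7 textbook target genes, 2 were called higher and 3 lower with HHT at 10000 nM, with a median of -0.65. NOS3, a target of KLF2 in endothelium, was at 2.47 (SE 0.309) and CDKN1A, the cell cycle inhibitor p21, at 1.28 (SE 0.093). NOS3 was near the floor in the deeper DMSO wells, with a median of 0.17 TPM, so its changes rest on low levels. SMAD7 was at -1.31 (SE 0.149) and CCND1 at -1.28 (SE 0.101). With triptolide at 10000 nM 1 was called higher and 4 lower, with a median of -2.05, PDGFA at -4.81 (SE 0.232), SMAD7 at -4.29 (SE 0.230) and NOS3 at 1.63 (SE 0.405).

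The genes whose level over the 19 groups was most like that of a member were found by Pearson's r, as a description. For KLF10 these were ZNF3 (r = 0.993) and BCL10 (0.992), for KLF5 ZNF317 (0.991), for KLF6 KLHL21 (0.981), for KLF13 SH3BP4 (0.981) and SMAD3 (0.976), and for KLF7 KLF12 (0.968). The groups share compounds and library preparation, and the triptolide and HHT groups span most of the range. The pseudogenes KLF2P1 and KLF2P4 reached 1.45 and 1.43 TPM, so reads of KLF2 may be divided with them.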

How the data were processed

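Expected counts per gene and TPM were deposited by the authors for each of 72 wells. Per the labels, RSEM, HTSeq, DESeq2 and build GRCh38 were named in the submitters' processing notes; versions are not given in the sources used here. RSEM divides reads between like genes and its effective length enters the TPM. IDs were named with GENCODE 44 (56104 of 60371 matched). Expected counts were rounded and tested with edgeR 4.0.16 in R 4.3.3 (TMM, filterByExpr at 10 counts, quasi-likelihood test, Benjamini-Hochberg over all genes tested), with 1 fit per compound and dose against all 18 DMSO wells, 1 per dose for triptolide against HHT, and 1 per compound for a linear term in log10 dose, where adjusted p under 0.05 alone made a call. SE was the fold change over the square root of F. In simulated data for the comparison with DMSO (15865 genes), edgeR recovered 200 of 200 genes changed by 2 on the log2 scale, with 1 false call. For triptolide against HHT it recovered 198 with 3 false calls, and for the dose trend 200 with 10. The simulation left out genes with low counts and changed as many genes up as down. It therefore does not cover members on few counts or wide shifts to 1 side.

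TPM was planned as the level of each gene, with TMM-scaled CPM as its alternative. After the values were seen, single wells were printed as CPM, because TPM moved between wells at like counts, and TPM was kept for levels between genes. All 10 members are reported whatever their values, and of the other lists the 2 genes with the largest rise and fall among those called were eligible to be named. The members and lists were chosen with earlier results of these data known. The alternatives were DESeq2 1.42.0, other scalings and filters, a GC covariate, shallow libraries or single wells left out, and a replicate block. Same-numbered wells did not deviate together (mean r = -0.056 for treated and DMSO wells). Of 207 replicate pairs, none agreed within sampling noise (lowest chi-square per degree of freedom 1.37).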

Additional observations from a re-analysis of the deposited data

How the results depend on the processing

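Wells with the same replicate number did not pair, and a replicate block changed the count of called members for nilotinib 100 nM, from 1 to 0, for triptolide 100 nM, from 4 to 5 (KLF13 at -1.25), and for the HHT trend, from 4 to 3. Leaving out 1 well gave 3 to 4 called members for the HHT trend and for triptolide 100 nM, 4 to 5 for HHT 100 nM and for triptolide against HHT at 100 nM, 6 to 7 for triptolide against HHT at 1000 nM, 0 to 1 for nilotinib 100 nM and for pyrazolanthrone 10000 nM, and the main count elsewhere. Nilotinib 100 nM also went to 0 with library sizes only, the GC covariate and a strict filter, and pyrazolanthrone 10000 nM to 1 with the GC covariate. Library sizes only gave 5 at HHT 1000 nM. DESeq2 called 5 members at triptolide 1000 nM, where it gave KLF6 and KLF9 no adjusted p and KLF13 a log2 fold change of -0.89. For triptolide against HHT at 100 nM DESeq2 called 4 members, without KLF2.

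Requiring 10 counts in every well, which by construction tests fewer genes, gave 3 called members for triptolide 10000 nM, 2 for triptolide 1000 nM, 3 for HHT 10000 nM, 4 for HHT 1000 nM, 1 for nilotinib 10000 nM, and 2 and 5 for triptolide against HHT at 1000 and 10000 nM. Mitochondrial scaling gave 9 for triptolide 100 nM, 9 for triptolide against HHT at 100 nM, 8 for the triptolide trend, and 0 for nilotinib and MK-2206 at 10000 nM. This scaling moved the median of all genes by -1.65, -1.65, -0.5, -0.69 and -0.26 in these comparisons, in the same order. The share of all genes called under this scaling is not given here, so these counts are not read as particular to the members. At HHT 10000 nM mitochondrial scaling gave 3 higher and 3 lower, with KLF2 at 0.95 and not called and KLF3 called at -1.10. It reversed triptolide against HHT for KLF3, to -1.49, -2.31 and -2.26 at 100, 1000 and 10000 nM, and for KLF13, to -1.45, -1.61 and -0.46; the cause was not tested.

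On the CPM scale 33 of 59 levels moved by more than 1 SD from TPM, and 2 changed sign. With triptolide at 1000 and 10000 nM the CPM log2 ratio to DMSO was higher than the TPM ratio by 0.21 to 1.01. Depth limits KLF4 in all groups and KLF2 with triptolide, which rest on few counts.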
